A study of Rattus norvegicus with 30 samples.

Results

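B cells and the plasma cells that arise from them were followed in rat lung through 7 genes: Cd79a, Cd79b, Ms4a1, Igj, Mzb1, Pou2af1 and Fcrla. The genes were taken by symbol, each symbol stood on 1 row, and all 7 were found among the 22914 genes with deposited read counts. All 7 were among the 15934 genes abundant enough to be tested, in libraries where 54 or more reads fell on every one of them except Ms4a1, whose lowest count was 28.

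The files place Cd79a (ENSRNOG00000020125) and Ms4a1 (ENSRNOG00000020945) on chromosome 1, Cd79b (ENSRNOG00000011917) on chromosome 10, Igj (ENSRNOG00000003666) on chromosome 14, Mzb1 (ENSRNOG00000022009) on chromosome 18, Pou2af1 (ENSRNOG00000011500) on chromosome 8 and Fcrla (ENSRNOG00000003136) on chromosome 13.

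Male Sprague Dawley rats aged 8 weeks gave 1 lung library each, 30 in all, with 3 rats in each of 10 groups. Severe acute pancreatitis (SAP) was induced by 0.1 mL per 100 g of 5.0% sodium taurocholate, a bile salt, given by retrograde infusion into the common duct of bile and pancreas. Con rats had sterile saline infused there, and in the Sham groups the pancreas was only rotated. DEX rats had SAP and were given 10 mg/kg dexamethasone, a synthetic glucocorticoid, intravenously. Emo rats had SAP and were given emodin, a rhubarb anthraquinone, by gavage, at 10 mg/kg according to one label and 40 mg/kg according to another. Drugs were given at 2 and 12 h, lungs were taken at 6 or 24 h, and rats of the 6 h groups had therefore received only the earlier dose. Rats of the other groups received the vehicles of both drugs, all were fasted and anaesthetized with pentobarbital, and the pulmonary artery was flushed with saline at sampling. The study asked how emodin and DEX differ in their effects on the lung in SAP, and every rat that received either drug also carried the taurocholate injury.

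B cells carry membrane immunoglobulin that signals through the paired CD79 chains, and antigen together with help from T cells turns them into antibody-secreting plasma cells. Plasma cells lose much of the receptor machinery, enlarge the endoplasmic reticulum and export immunoglobulin, of which the polymeric forms are joined by the J chain and carried across airway epithelium. In lung, B cells and plasma cells lie in the interstitium, around airways and in lymphoid aggregates. The 7 genes cover both states. Cd79a and Cd79b encode the signalling chains of the B cell receptor, and Ms4a1 encodes CD20, a surface protein of mature B cells. Igj encodes the J chain, and Mzb1 encodes a chaperone partner of the endoplasmic reticulum that helps immunoglobulin assembly. Pou2af1 encodes a B cell coactivator of octamer-binding transcription factors, and Fcrla encodes an intracellular relative of the Fc receptors found in B cells.

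All 7 genes were matched to the RefSeq gene table of the rat assembly GRCr8, 6 by symbol and Igj as a synonym of Jchain, and 3 had an entry among its promoters (Cd79a, Igj and Fcrla). The 250 bases upstream of the start site are shown for these, as a receptor gene, a secretion gene and the gene whose levels followed the others least. The letters of 5 short motifs were searched on both strands of each window from 250 bases before to 50 after the start. Capitals mark the only match, the E-box CAGGTG, which began 155 bases before the start of Cd79a and 84 bases before that of Fcrla. Sequences run 5′ to 3′ on the gene's strand, which is plus for Cd79a (chr1:89621210-89621459) and Igj (chr14:19822726-19822975) and minus for Fcrla (chr13:85702827-85703076).
Cd79a: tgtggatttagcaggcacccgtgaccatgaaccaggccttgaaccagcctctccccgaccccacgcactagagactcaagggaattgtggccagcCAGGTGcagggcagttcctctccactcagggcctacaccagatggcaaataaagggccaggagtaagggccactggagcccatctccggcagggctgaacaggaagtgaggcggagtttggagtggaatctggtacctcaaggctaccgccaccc
Igj: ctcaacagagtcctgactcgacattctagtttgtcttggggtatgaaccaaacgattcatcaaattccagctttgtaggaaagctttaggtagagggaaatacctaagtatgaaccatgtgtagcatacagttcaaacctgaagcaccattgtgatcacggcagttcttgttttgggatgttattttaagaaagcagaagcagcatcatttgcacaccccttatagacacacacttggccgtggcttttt
Fcrla: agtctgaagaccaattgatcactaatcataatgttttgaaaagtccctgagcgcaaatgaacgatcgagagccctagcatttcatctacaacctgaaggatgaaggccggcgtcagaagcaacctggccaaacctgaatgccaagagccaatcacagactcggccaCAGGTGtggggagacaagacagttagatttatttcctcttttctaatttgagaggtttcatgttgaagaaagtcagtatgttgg
This E-box was present in 18.8% of all 33469 promoters of that length. The octamer ATGCAAAT (1.78% of promoters), the EBF motif CCCNNGGG (12.4%), the PU.1 motif GAGGAAGT (2.42%) and the glucocorticoid receptor motif AGAACA (20.7%) had no match in these 3 windows, which says only that these letters are not there. None of the motifs overlapped another in the matches found.

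Levels are given as FPKM, fragment counts scaled by transcript length and library size, as deposited. The libraries held 16813949 to 34692306 reads assigned to genes. The summed FPKM of 8 alveolar type 2 cell genes, the surfactant-producing epithelium that marks lung tissue, was between 25225 and 48229 in every library. The study's mapping statistics separate the 12 Sham and Con libraries from the 18 libraries of taurocholate-treated rats, so for comparisons across that line mapping and injury cannot be told apart. Replicate 2 of Con-6h stood apart. It was the highest of the 30 libraries for 6 of the 7 genes, at 3.84 times the median of the other 29 libraries for Cd79a and 6.87 times for Mzb1, whereas its Fcrla level of 24.89 FPKM was exceeded in 6 others. Its immunoglobulin genes summed to 6243 FPKM, compared with at most 2091 elsewhere. Its MHC class II list was also the highest of the 30 (3113 FPKM, next highest 2753 FPKM). Its T cell list was the highest by a narrow margin (195 FPKM, next highest 192 FPKM).

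Igj was the most abundant of the 7 genes in all 10 groups, with group means from 30.5 to 255 FPKM. Group means of Cd79a lay between 4.73 and 39.2 FPKM and of Cd79b between 2.38 and 28.2 FPKM. Those of Mzb1 lay between 7.50 and 36.3 FPKM and of Fcrla between 7.25 and 25.5 FPKM. Ms4a1 (1.14 to 6.35 FPKM) and Pou2af1 (2.52 to 9.24 FPKM) had the lowest maxima of the 7. The highest means of Cd79a, Cd79b, Igj, Mzb1 and Pou2af1 were those of Con-6h, which holds the replicate 2 that stood apart. It was at 74.6 FPKM for Cd79a (other Con-6h rats 16.52 and 26.36 FPKM) and 59.52 FPKM for Cd79b (11.11 and 14.05 FPKM). DEX-24h had the lowest mean of the 10 groups for every gene except Mzb1, whose lowest mean was in SAP-24h. When the 10 groups were ordered by their means, neighbouring groups overlapped at all but 3 steps. These steps lay between SAP-24h and DEX-24h for Cd79a and for Cd79b, and between SAP-6h and Emo-24h for Igj.

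Among the receptor genes, the mean level (± SD, n = 3 rats) of Cd79a in descending order was 39.2 ± 31.1 in Con-6h, 25.9 ± 9.99 in Con-24h, 25.7 ± 6.87 in SAP-6h, 23.2 ± 2.92 in Emo-6h, 21.7 ± 3.93 in DEX-6h, 21.6 ± 6.33 in Emo-24h, 19.95 ± 5.90 in Sham-6h, 16.2 ± 5.32 in Sham-24h, 12.4 ± 3.34 in SAP-24h and 4.73 ± 1.33 in DEX-24h FPKM. Only the last step was larger than the SD of both groups. For the secretory genes, Igj was at 255 ± 230 in Con-6h, 166 ± 49.9 in Sham-24h, 166 ± 62.5 in SAP-6h, 93.1 ± 19.5 in Emo-24h, 91.8 ± 17.6 in Sham-6h, 90.9 ± 42.0 in Con-24h, 72.9 ± 29.8 in Emo-6h, 72.8 ± 18.6 in DEX-6h, 47.6 ± 14.8 in SAP-24h and 30.5 ± 10.5 in DEX-24h FPKM. Mzb1 was at 36.3 ± 39.4 in Con-6h, 17.4 ± 4.35 in Emo-24h, 16.0 ± 4.84 in Sham-24h, 15.3 ± 5.00 in SAP-6h, 13.7 ± 3.12 in DEX-6h, 13.4 ± 8.52 in Con-24h, 12.3 ± 2.60 in Emo-6h, 12.0 ± 3.68 in Sham-6h, 9.11 ± 5.95 in DEX-24h and 7.50 ± 2.97 in SAP-24h FPKM, and no step between its neighbouring groups exceeded the larger SD. Fcrla was at 25.5 ± 14.9 in SAP-6h, 22.9 ± 8.34 in DEX-6h, 22.8 ± 8.998 in Con-24h, 21.8 ± 11.4 in Con-6h, 21.5 ± 7.87 in Sham-24h, 20.6 ± 15.1 in Sham-6h, 18.5 ± 4.34 in Emo-24h, 17.2 ± 1.99 in Emo-6h, 15.2 ± 5.69 in SAP-24h and 7.25 ± 2.68 in DEX-24h FPKM, where the last step exceeded the SD but the libraries overlapped.

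**Figure D1:**
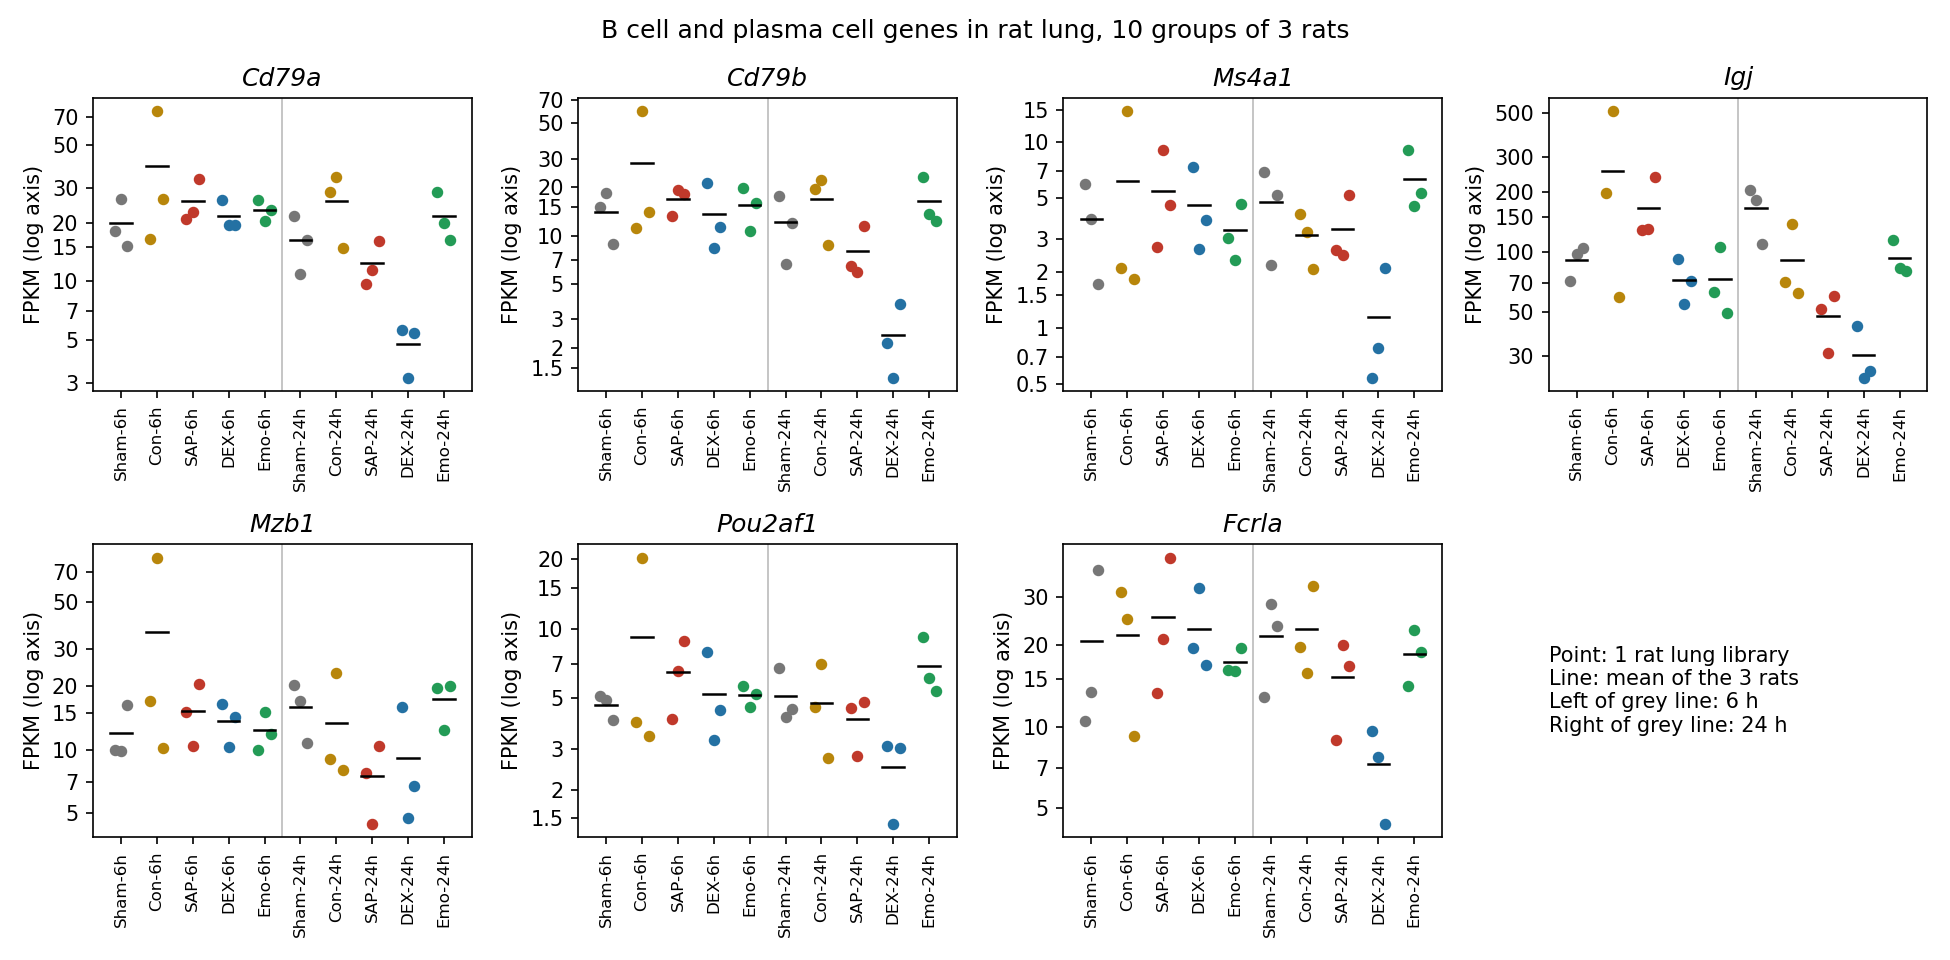
FPKM of the 7 genes (vertical axis, log scale) in the 10 groups (horizontal axis, 6 h left and 24 h right), where each point is 1 library and each line the mean of 3 rats. The 3 DEX-24h points lie below all 27 other libraries for Cd79a and Cd79b, and the highest point of every panel except Fcrla is replicate 2 of Con-6h.

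In lung of DEX-24h rats, the B cell receptor genes were lower than in SAP-24h rats. Cd79a was at 5.6, 3.19 and 5.39 FPKM in DEX-24h and at 9.71, 11.38 and 16.15 FPKM in SAP-24h. Cd79b was at 2.13, 1.3 and 3.72 FPKM in DEX-24h and at 6.49, 5.95 and 11.54 FPKM in SAP-24h. The 2 groups did not overlap for either gene. Cd79a was 2.78-fold lower (log2 fold change -1.47, SE 0.40, edgeR's quasi-likelihood test, adjusted p = 0.0252) and Cd79b 3.56-fold lower (-1.83, SE 0.55, adjusted p = 0.0402). Thus 2 of the 7 genes were called lower, where a call is a Benjamini-Hochberg adjusted p under 0.05 with a fold change of at least 2, and 2.55% of all genes tested were called lower in this comparison. The median log2 fold change was -1.13 over the 7 genes and 0.00 over all genes tested. In bulk tissue, fewer B cells and less of these transcripts per B cell cannot be told apart.

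The other 5 genes did not pass in the same comparison. Ms4a1 was at 0.54, 0.78 and 2.11 FPKM in DEX-24h and at 2.63, 2.47 and 5.19 FPKM in SAP-24h, without overlap, and its difference of -1.68 (SE 0.69) missed the threshold (edgeR, adjusted p = 0.143). Fcrla was at 9.66, 7.73 and 4.37 FPKM against 8.88, 19.95 and 16.69 FPKM (log2 fold change -1.13, SE 0.51, adjusted p = 0.176 by edgeR). Its groups overlapped through replicate 1 of each. Igj, at 42.48, 23.47 and 25.42 FPKM against 51.69, 31.19 and 60.02 FPKM, differed by -0.74 (95% interval -1.73 to 0.26). Pou2af1 differed by -0.78 (interval -1.80 to 0.23). Mzb1, the chaperone gene of the secretory pathway, went the other way in the fit. It was at 15.89, 4.74 and 6.71 FPKM in DEX-24h and at 7.71, 4.44 and 10.36 FPKM in SAP-24h, a difference of 0.19 (interval -0.96 to 1.35) that became -0.46 without replicate 1 of DEX-24h and -0.08 without replicate 2 of SAP-24h.

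Both calls of this comparison were sensitive to single rats. The adjusted p of Cd79a lay between 0.0533 and 0.116 without replicate 1, 2 or 3 of DEX-24h or replicate 3 of SAP-24h. That of Cd79b lay between 0.0655 and 0.161 without replicate 1 or 2 of DEX-24h or replicate 1 or 3 of SAP-24h. With limma on log2(FPKM + 1), neither gene passed (adjusted p = 0.0551 for Cd79a and 0.0804 for Cd79b), and with only the 6 libraries compared Cd79b did not (0.0867).

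For Cd79a and Cd79b, all 27 libraries outside DEX-24h lay above its 3 libraries. For the other genes some overlapped, and 26 of the 27 lay above for Igj, 25 for Pou2af1 and Fcrla, 23 for Ms4a1 and 10 for Mzb1. The share of all genes tested whose DEX-24h libraries lie below all others was not computed. Nor was the share without overlap between any pair of groups. Compared with Sham-24h, 3 genes were called lower, against 3.16% of all genes tested. Cd79a, at 21.57, 10.93 and 16.25 FPKM in Sham-24h, was 3.33-fold lower in DEX-24h (log2 fold change -1.74, SE 0.40, edgeR adjusted p = 0.0096). Cd79b, at 17.69, 6.6 and 12.06 FPKM in Sham-24h, was 4.93-fold lower (-2.30, SE 0.55, adjusted p = 0.0114). The groups did not overlap for either. Igj, at 205.48, 183.21 and 110.1 FPKM in Sham-24h, was 5.30-fold lower (-2.41, SE 0.50, adjusted p = 0.0044). This Igj call held in each fit with 1 library left out. The calls of Cd79a and Cd79b were lost without replicate 2 of DEX-24h (adjusted p = 0.0553 and 0.0663) or replicate 1 of Sham-24h (0.0666 and 0.0770), and that of Cd79b also without replicate 1 of DEX-24h (0.0509). Ms4a1 (log2 fold change -2.03, adjusted p = 0.081) and Fcrla (-1.53, adjusted p = 0.0708) missed the threshold, and without replicate 2 of Con-6h, which is not in the comparison but in the same model, Ms4a1 passed (adjusted p = 0.0305 in edgeR).

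Between the drugs at 24 h, 4 of the 7 genes were called higher in Emo-24h than in DEX-24h, against 3.82% of all genes tested. Cd79a was at 28.6, 19.96 and 16.26 FPKM in Emo-24h, 4.34-fold above DEX-24h (log2 fold change 2.12, SE 0.40, edgeR adjusted p = 0.0020). Cd79b was at 23.09, 13.71 and 12.28 FPKM, 6.54-fold above (2.71, SE 0.56, adjusted p = 0.0036). The CD20 gene Ms4a1 was at 9.14, 4.56 and 5.36 FPKM, 5.33-fold above (2.41, SE 0.70, adjusted p = 0.0319). For all of these genes, every Emo-24h rat lay above every DEX-24h rat. Igj, at 115.53, 82.92 and 80.78 FPKM in Emo-24h, was 2.91-fold higher (1.54, SE 0.49, adjusted p = 0.0495). Its call did not survive the removal of any 1 of the 6 rats (adjusted p between 0.0555 and 0.186), nor RLE scaling (0.0512) or the absence of a filter on low counts (0.0556). It was also lost with a block by replicate number. The call of Ms4a1 was lost without replicate 1 or 2 of either group (0.0566 to 0.128), whereas those of Cd79a and Cd79b held in each. Pou2af1, at 9.24, 6.13 and 5.37 FPKM in Emo-24h and 3.09, 1.42 and 3.04 FPKM in DEX-24h, did not overlap between the groups and missed the threshold (1.39, SE 0.49, adjusted p = 0.0832). It passed without replicate 2 of Con-6h (0.0181). Fcrla (1.29, adjusted p = 0.123) and Mzb1 (0.87, adjusted p = 0.410) did not pass.

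**Figure D2:**
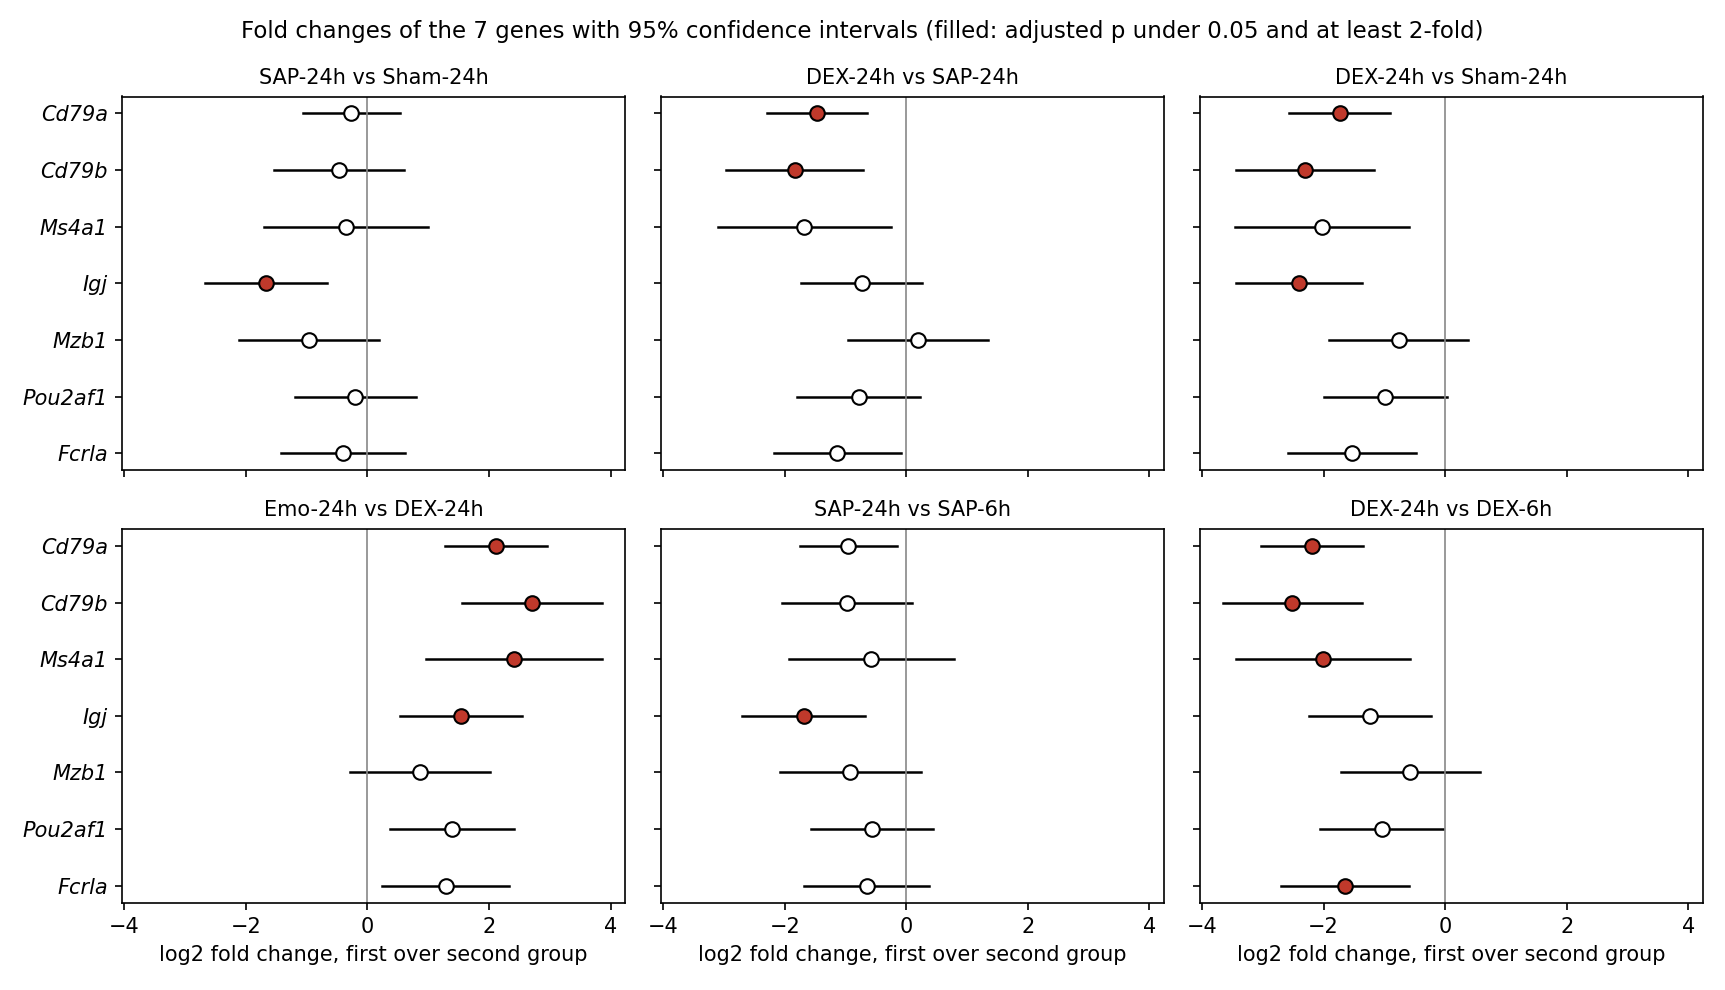
Log2 fold changes of the 7 genes (horizontal axis, first group over second) with 95% confidence intervals from edgeR in 6 comparisons, filled where the adjusted p was under 0.05 and the change at least 2-fold. Cd79a and Cd79b are filled in the 4 panels that contain DEX-24h, and Igj is the only filled gene in the 2 SAP-24h panels without it.

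DEX rats differed between the time points. From DEX-6h to DEX-24h, 4 of the 7 genes were called lower, against 3.91% of all genes tested. Cd79a was at 26.22, 19.39 and 19.42 FPKM in DEX-6h and was 4.55-fold lower at 24 h (log2 fold change -2.19, SE 0.40, edgeR adjusted p = 0.00069). Cd79b was at 21.42, 8.4 and 11.25 FPKM in DEX-6h and was 5.72-fold lower at 24 h (-2.52, SE 0.55, adjusted p = 0.0025). Neither gene overlapped between the time points, and both calls held in each fit with 1 library left out. Ms4a1, at 7.37, 2.65 and 3.81 FPKM in DEX-6h, was 4.04-fold lower (-2.01, SE 0.69, adjusted p = 0.0352). Fcrla, at 19.42, 32.43 and 16.89 FPKM in DEX-6h, was 3.14-fold lower (-1.65, SE 0.51, adjusted p = 0.0205), and this was the only comparison in which Fcrla was called. The call of Ms4a1 was lost without replicate 1 or 2 of DEX-24h or replicate 1 of DEX-6h (0.115 to 0.153). It was also lost with limma (0.0637) and with a block by replicate number. That of Fcrla was lost without replicate 3 of DEX-24h (0.0913) or replicate 2 of DEX-6h (0.0983). Igj (-1.24, adjusted p = 0.0621) and Pou2af1 (-1.04, adjusted p = 0.121) missed the threshold, and both passed without replicate 2 of Con-6h (0.0298 and 0.0364). The 4 comparisons that contain DEX-24h share its 3 libraries and are not independent of each other.

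The DEX effect itself was not shown to differ between the time points. The difference of the DEX effect at 24 h minus at 6 h was -1.23 (SE 0.55, edgeR adjusted p = 0.330) for Cd79a and -1.54 (SE 0.74, adjusted p = 0.367) for Cd79b, and 0.138% of all genes tested were called for this term. Averaged over the time points, DEX against SAP gave -0.86 (SE 0.28, adjusted p = 0.0599) for Cd79a and -1.06 (SE 0.37, adjusted p = 0.0849) for Cd79b. No gene of the 7 was called, against 2.3% of all genes tested. In this average, Cd79b was called without replicate 1 of DEX-6h (adjusted p = 0.0493) or without replicate 2 of Con-6h (0.0342).

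In untreated SAP, the J chain gene was the only one of the 7 to be called. Igj was at 51.69, 31.19 and 60.02 FPKM in SAP-24h and at 205.48, 183.21 and 110.1 FPKM in Sham-24h. The groups did not overlap, and the level was 3.18-fold lower in SAP-24h (log2 fold change -1.67, SE 0.49, edgeR adjusted p = 0.0279). A share of 3.01% of all genes tested was called lower, and the median log2 fold change was -0.40 over the 7 genes and -0.03 over all. Against the saline-infused Con-24h rats, at 71.02, 139.15 and 62.43 FPKM, Igj differed from SAP-24h by -0.81 (SE 0.48, adjusted p = 0.239), and 6.91% of all genes tested were called in either direction. The Igj call against Sham-24h was lost without replicate 1 or 2 of either group (adjusted p between 0.0671 and 0.097). It was also lost when only the 6 libraries compared were fitted (0.0821). Cd79a and Cd79b differed between SAP-24h and Sham-24h by -0.26 (95% interval -1.06 to 0.53) and -0.47 (interval -1.54 to 0.60) and were not called, and both intervals include a 2-fold lower level. Against Con-24h, the differences were -0.95 for Cd79a (adjusted p = 0.0807) and -0.96 for Cd79b (adjusted p = 0.190), and Cd79a alone was called when replicate 3 of Con-24h was left out.

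Igj differed in the same way between the time points of SAP. It was at 129.15, 129.93 and 237.78 FPKM in SAP-6h and 3.23-fold lower in SAP-24h (log2 fold change -1.69, SE 0.49, edgeR adjusted p = 0.0406). The groups did not overlap. Igj was again the only gene of the 7 to be called, against 1.74% of all genes tested that were called lower. Its call was lost without replicate 1, 2 or 3 of SAP-24h or replicate 1 or 3 of SAP-6h (0.0769 to 0.155), and with only the 6 libraries compared (0.0582). Mzb1, the other secretory gene, was at 15.11, 10.38 and 20.38 FPKM in SAP-6h and differed at 24 h by -0.92 (SE 0.56, adjusted p = 0.317). At 6 h, Igj in SAP was above Sham-6h, which was at 71.92, 97.97 and 105.36 FPKM, by 0.89 (SE 0.48, adjusted p = 0.441). The SAP effect on Igj at 24 h minus that at 6 h was -2.56 (SE 0.68, unadjusted p = 0.00098). It was not called after adjustment over all genes (adjusted p = 0.154), for which 0.0314% of genes passed.

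In emodin-treated rats at 24 h, none of the 7 genes differed beyond the threshold from Sham or from SAP. No gene was called between Emo-24h and Sham-24h, where 0% of all genes tested were called. Cd79a differed by 0.38 (95% interval -0.41 to 1.17) and Igj by -0.87 (interval -1.85 to 0.12), so that differences of more than 2-fold are within the interval of both. Against SAP-24h, all 7 genes had a log2 fold change above 0, from 0.15 for Fcrla to 1.06 for Mzb1, and none was called (edgeR, smallest adjusted p = 0.231, 0 genes at an unadjusted p under 0.05, and 3.19% of all genes tested called). From Emo-6h to Emo-24h no gene of the 7 was called either, although 9.41% of all genes tested were, the highest share of the 27 comparisons. Their log2 fold changes lay between -0.16 and 0.86. The emodin effect on Igj at 24 h minus that at 6 h was 2.00 (SE 0.68, adjusted p = 0.083, with 1.68% of all genes called), from -1.20 at 6 h to 0.80 at 24 h. It was not called, but passed when replicate 2 of Emo-6h was left out (adjusted p = 0.0499).

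No gene of the 7 was called in any comparison within 6 h, in Sham or Con over time, or between Sham and Con. The shares of all genes called were small in most of these. They were 0.22% for SAP-6h against Sham-6h, 0.163% for SAP-6h against Con-6h, 0% for Sham-6h against Con-6h, 0.515% for DEX-6h against SAP-6h and 0.0251% for Emo-6h against SAP-6h. They were 3.97% for DEX-6h against Sham-6h, 0.477% for Emo-6h against Sham-6h and 1.41% for Emo-6h against DEX-6h. For Sham-24h against Con-24h the share was 1%, for Sham-24h against Sham-6h 0.257% and for Con-24h against Con-6h 0.00628%. For SAP against Sham averaged over the time points it was 2.82%, and for emodin against SAP averaged 0.37%. Over the 21 comparisons in which edgeR called no gene of the 7, an unadjusted p under 0.05 with at least a 2-fold change would give 11 calls in 8 comparisons, DESeq2 gave 3 calls and limma 0. At 6 h, the DEX and emodin groups both had lower Igj than SAP-6h, at 91.98, 54.86 and 71.54 FPKM in DEX-6h and 63.1, 106.36 and 49.32 FPKM in Emo-6h. Every value was below the lowest SAP-6h value of 129.15 FPKM, and neither difference passed (-1.19, adjusted p = 0.288 and -1.20, adjusted p = 0.291). These 2 comparisons share the SAP-6h libraries.

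Pathway genes around the 7 were followed as lists, in the comparison of DEX-24h with SAP-24h first. Of 16 genes of B cell receptor signalling, 7 were called lower by edgeR and none higher, where 2.55% of all genes tested were called lower. Among them were the kinases Blk (log2 fold change -1.33), Syk (-1.17) and Btk (-1.11), and the adaptor and scaffold genes Bank1 (-2.04) and Pik3ap1 (-1.15). Of 21 tested genes of B cell identity, 4 were called lower, namely the tetraspanin gene Cd37 (-1.14), the homing receptor gene Ccr7 (-2.57), the IgM receptor gene Faim3 (-1.78) and the adaptor gene Stap1 (-2.28). The median log2 fold change was -1.13 for receptor signalling and -1.11 for identity. It was -2.40 for the neutrophil list. In SAP-24h against Con-24h, the medians were 0.26 for receptor signalling, -0.37 for identity and 4.01 for neutrophils, so the first 2 lists did not move together there. The part of other cells in the receptor signalling calls was not tested. None of 13 plasma cell genes and none of 6 immunoglobulin genes was called. The most abundant plasma cell gene, Xbp1, the transcription factor of the secretory programme, had a log2 fold change of -0.97 (adjusted p = 0.0029), just short of 2-fold and so not called, and the surface proteoglycan gene Sdc1 of -0.16 (adjusted p = 0.616). Both are also expressed by epithelium.

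In the same comparison, the kappa constant gene Igkc was at a mean of 352 FPKM in DEX-24h and 384 FPKM in SAP-24h (log2 fold change -0.22, SE 0.51, edgeR adjusted p = 0.825). The mu constant gene Ighm, which naive B cells also express as receptor, was at 26.3 and 55.1 FPKM (-1.16, SE 0.42, adjusted p = 0.093). Against Sham-24h, Ighm was called lower in DEX-24h (-1.87, adjusted p = 0.0096), and it was called lower from DEX-6h to DEX-24h (-1.42, adjusted p = 0.017). No other immunoglobulin gene of the 6 was called in the 6 comparisons that had calls among the 7 genes. Immunoglobulin segments share sequence, so their reads can be divided among segments or lost as multi-mapped reads.

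The wider lists in the other comparisons that contain DEX-24h had the following counts. For Emo-24h against DEX-24h, 9 of 16 receptor signalling genes and 12 of 21 identity genes were called higher, where 3.82% of all genes tested were. Among them were Pax5 (log2 fold change 3.18), the transcription factor of B cell commitment, and the low-affinity IgE receptor gene Fcer2 (3.86). Of 13 plasma cell genes, only Irf4 (1.35) was called, and none of 6 immunoglobulin genes. From DEX-6h to DEX-24h, 7 of 16 and 8 of 21 were called lower (3.91% of all genes tested), with Cd22, an inhibitory coreceptor gene, at -1.72 and Ccr7 at -4.14. Against Sham-24h the counts were 7 and 8 (3.16% of all genes tested). Of 13 tested genes of factors that attract or sustain B cells, 2 were called lower in DEX-24h than in SAP-24h (2.55% of all genes tested), Cxcl12 (-1.83), a chemokine that retains B cells and plasma cells, and the interleukin gene Il6 (-6.56, SE 1.55, mean 0.0467 FPKM in DEX-24h and 3.92 FPKM in SAP-24h). In turn, the survival factor gene Tnfsf13b (BAFF), Cxcl12, Ccl19, Ccl21, Cd40lg and Lta were called higher in Emo-24h than in DEX-24h, which is 6 of the 13.

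In SAP-24h against Sham-24h, the lists of receptor signalling (0 of 16 called) and identity (1 of 21, Ccr6, log2 fold change -1.30) held few calls, where 3.01% of all genes tested were called lower. Of 13 plasma cell genes, 2 were called lower, Tnfrsf17 (-2.12), the plasma cell survival receptor BCMA, and Irf4 (-1.29), and 1 higher (1.98% of all genes tested), Creld2 (1.41), a gene of the endoplasmic reticulum stress response that many cells express. None of 6 immunoglobulin genes was called, with medians of -0.77 for that list and 0.02 for receptor signalling. From SAP-6h to SAP-24h, the immunoglobulin list had a median of -1.34 and no call, with Igkc at 1005 FPKM in SAP-6h and 384 FPKM in SAP-24h (-1.28, SE 0.52, edgeR adjusted p = 0.132).

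Genes of other cells moved beside the 7. The summed T cell list lay between 18.6 and 27.9 FPKM in DEX-24h and between 28.9 and 33.9 FPKM in SAP-24h, compared with 81.6 to 117.5 FPKM in Sham-24h and 34.8 to 117.4 FPKM in Emo-24h. Of 14 T cell genes tested, 0 were called between DEX-24h and SAP-24h and 8 lower in SAP-24h than in Sham-24h (3.01% of all genes tested). In DEX-24h, 13 were called lower than in Sham-24h (3.16%) and 12 lower than in DEX-6h (3.91%). From SAP-6h to SAP-24h, 5 were called lower (1.74%), and 12 were called higher in Emo-24h than in DEX-24h (3.82%). Of 10 MHC class II genes, which B cells share with macrophages and dendritic cells, 6 were called lower in DEX-24h than in SAP-24h (2.55% of all genes tested), and the sum was 276 to 603 FPKM against 995 to 1409 FPKM. The 10 neutrophil genes summed to 1621 to 4828 FPKM in DEX-24h and 4664 to 17791 FPKM in SAP-24h, with 3 called lower (2.55% of all genes tested). Of 8 natural killer and cytotoxic cell genes, 0 were called between DEX-24h and SAP-24h, 4 lower in DEX-24h than in Sham-24h and 5 higher in Emo-24h than in DEX-24h, where 2.55%, 3.16% and 3.82% of all genes tested were called lower, lower and higher. Their sum was 6.79 to 28.2 FPKM in DEX-24h and 22.6 to 35.8 FPKM in SAP-24h. Of 8 plasmacytoid dendritic cell genes, the counts in these comparisons, with the same shares of all genes, were 1 lower, 5 lower and 5 higher, with sums of 188 to 240.4 FPKM in DEX-24h and 234 to 1330.3 FPKM in SAP-24h. These sums mainly follow Bst2 (mean 492 FPKM over the 30 libraries) and Irf7 (129 FPKM), whereas Siglech was at 0.452 FPKM. Of 8 glucocorticoid target genes, only Sgk1 (log2 fold change 1.92), a kinase gene, was called higher in DEX-24h than in SAP-24h, where 1.18% of all genes tested were called higher, and the sums overlapped (1235 to 1447 FPKM in DEX-24h and 1230 to 5319 FPKM in SAP-24h). Against Sham-24h, at 432 to 946 FPKM, 3 of the 8 were called higher in DEX-24h (0.992% of all genes tested). In Emo-24h, 5 of these 8 were called lower than in DEX-24h, where 1.24% of all genes tested were called lower, and 0 of 10 macrophage genes and 0 of 6 endothelial genes were called there. Replicate 1 of SAP-24h stood apart in its group. Its glucocorticoid target sum was 5319 FPKM (other rats 1230 and 1281 FPKM). Its plasmacytoid dendritic cell sum was 1330 FPKM (234 and 304 FPKM), and its plasma cell sum 726 FPKM (485 and 529 FPKM). Xbp1 (mean 167 FPKM over the 30 libraries) and Sdc1 (110 FPKM) weigh most in the plasma cell sum. Defining markers of the T cell list were low in the DEX-24h libraries but not absent, with Cd3e at a mean of 1.71 FPKM and Cd3d at 1.36 FPKM. The part of these other cells in the results for the 7 genes was not tested.

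**Figure D3:**
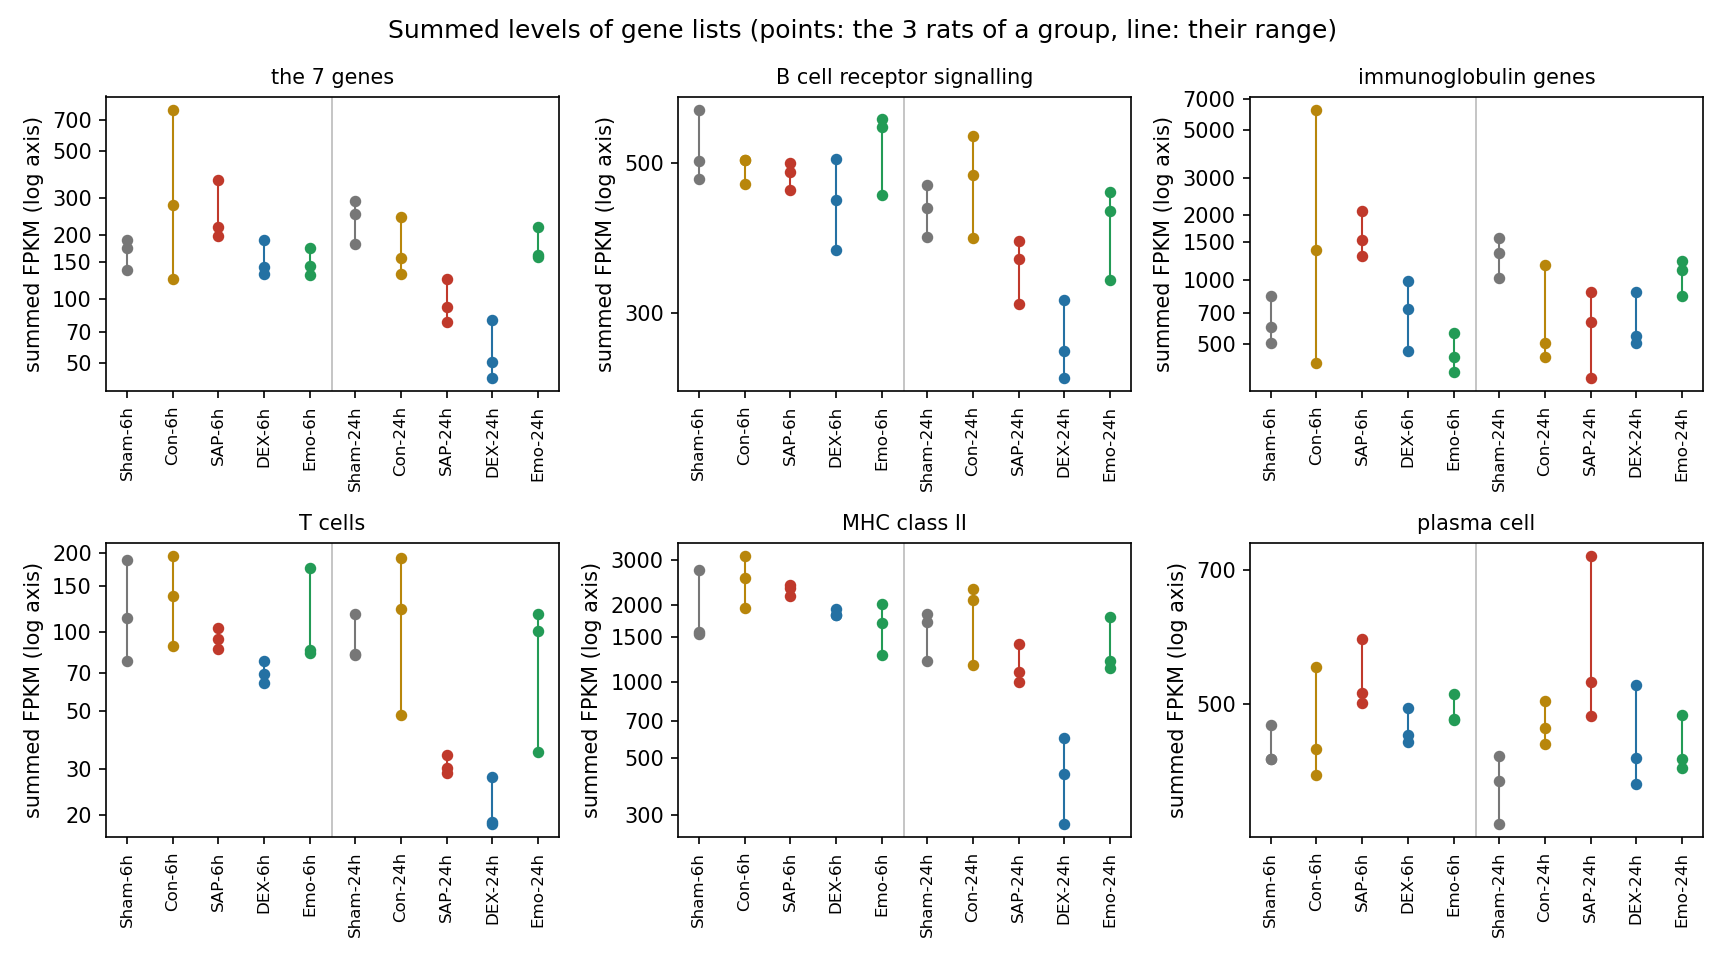
Summed FPKM of 6 gene lists (vertical axis, log scale) by group (horizontal axis), where points are the 3 rats of a group and the line spans their range. The lowest points for the 7 genes, receptor signalling and MHC class II are in DEX-24h, T cell genes are low in both SAP-24h and DEX-24h, and the immunoglobulin and plasma cell lists overlap between these groups.

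The 7 genes did not vary as one unit over the 30 libraries. Correlations of log2(FPKM + 1) are given as descriptions, since libraries of a group share their treatment. Cd79a and Cd79b had Pearson r 0.969 and stayed at 0.961 without replicate 2 of Con-6h. Igj and Mzb1 had r 0.838, and 0.896 for the deviations from group means. Pou2af1 had r 0.861 with Cd79b and 0.759 with Igj, and so was near both the receptor and the secretory genes. Ms4a1 had r 0.829 with Cd79b and 0.509 with Mzb1. The values of Fcrla ran from 0.222 with Ms4a1 to 0.532 with Igj, and within groups its deviations ran against those of Cd79a (-0.17) and Cd79b (-0.30). In Sham-6h, for example, replicate 3 had the lowest Cd79a (15.22 FPKM) and the highest Fcrla (37.96 FPKM). With Cd79a, Fcrla had r 0.765 in the 18 libraries of taurocholate-treated rats and -0.289 in the 12 Sham and Con libraries. In the same 12 libraries, its r was -0.316 with Cd79b, -0.245 with Ms4a1 and -0.079 with Pou2af1. With the secretory genes, r was 0.287 for Igj and 0.196 for Mzb1. Fcrla thus did not track Cd79a or Cd79b in lungs without taurocholate.

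**Figure D4:**
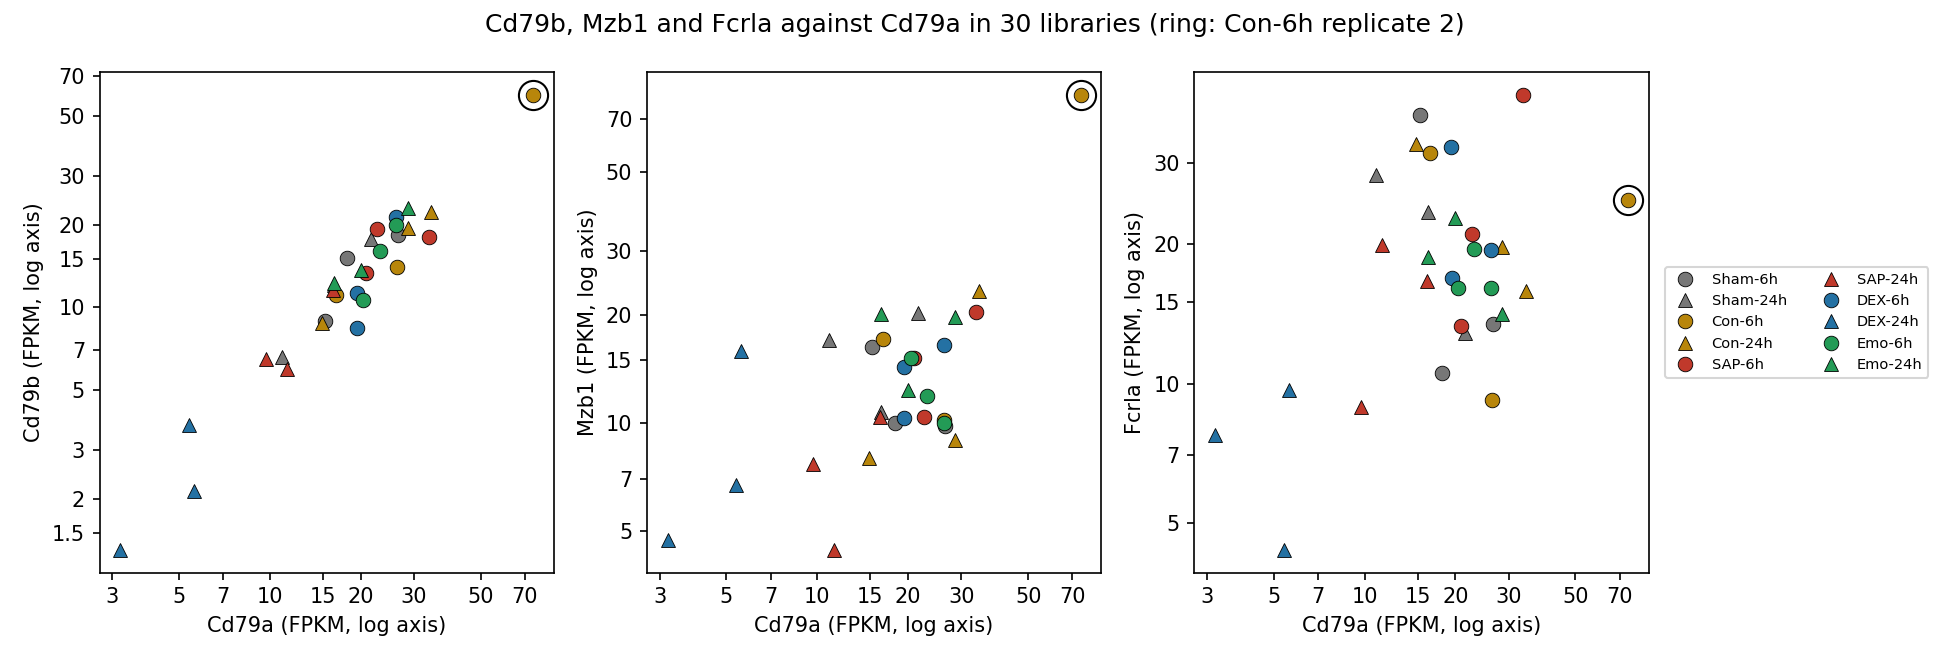
Cd79b, Mzb1 and Fcrla (vertical axes, FPKM, log scale) against Cd79a (horizontal axes, FPKM, log scale) in 30 libraries, coloured by treatment, with circles for 6 h and triangles for 24 h. Cd79b follows Cd79a closely (r 0.969), Mzb1 less so (r 0.642), and Fcrla shows a wide scatter (r 0.448).

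The genes whose levels were most like the mean of the 7 were mainly B cell genes. Among 12392 other genes with a symbol and a mean of at least 1 FPKM, the 10 with the highest Pearson r over the 30 libraries included Slamf6 (0.943), Ctse (0.895), Tnfrsf13c (0.883), Ighm (0.879), Blnk (0.878), Slamf7 (0.867), Faim3 (0.856), Cd22 (0.853) and the clone-named AABR07021759.1 (0.847). Slamf6 and Slamf7 encode lymphocyte receptors of the SLAM family, Tnfrsf13c the BAFF receptor, Blnk an adaptor of receptor signalling, and Ctse the protease cathepsin E. Without the 2 libraries farthest from the median, replicate 2 of Con-6h and replicate 2 of DEX-24h, r was 0.934 for Slamf6 and 0.747 to 0.834 for the other genes named. Single genes had different neighbours, which were looked up after their values were seen. Cd79a was most like Faim3 (0.965), Mzb1 most like the plasma cell receptor gene Tnfrsf17 (0.886), and Igj most like AABR07021759.1 (0.900), Ighm (0.894) and Slamf7 (0.891). Fcrla was most like Ppt1 (0.712), a lysosomal enzyme gene, followed by Pla2g2d (0.697) and Krt79 (0.690), and none of its 5 nearest genes was on the B cell lists.

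The balance of secretory to receptor transcripts within each library was also computed, again after the values had been seen and so without a test. The ratio of Mzb1 to Cd79a FPKM was 2.84, 1.49 and 1.25 in the DEX-24h rats and 0.794, 0.390 and 0.642 in the SAP-24h rats. It lay between 0.314 and 1.56 in the 27 libraries outside DEX-24h, with a median of 0.642. The ratio in DEX-24h was above all 3 SAP-24h rats and overlapped the highest Sham-24h rat. The ratio of Igj to Cd79a was 7.59, 7.36 and 4.72 in DEX-24h, 5.32, 2.74 and 3.72 in SAP-24h, and 9.53, 16.8 and 6.78 in Sham-24h, so that DEX-24h overlapped both other groups.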

How the data were processed

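Polyadenylated RNA from 30 rat lungs was sequenced as directional paired-end libraries. The authors aligned them by TopHat2 against an Ensembl rat genome (rat_ensembl_v6), allowing mismatches and discarding multi-mapped reads. The tools bcl2fastq and edgeR are also named in the submitters' processing notes, and the counting program is not given in the sources used here. The authors deposited read counts per gene, without normalization, for 22914 genes, and FPKM values for 22907 genes. Replicates were separate rats by the labels, and groups were taken from the labels.

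Counts were tested in R 4.3.3 with edgeR 4.0.16. Genes were filtered with filterByExpr (minimum count 10, minimum total 15), scaled by TMM, and fitted by quasi-likelihood in 1 model of 10 groups (20 residual degrees of freedom). P-values were adjusted by Benjamini-Hochberg across 15934 genes, separately for each of 27 comparisons. Standard errors and 95% intervals come from the same fit. FPKM served for levels, list sums and correlations, the latter on log2(FPKM + 1). The steps were tested on simulated data. Python 3.11.15, numpy 2.4.6, pandas 2.3.3, scipy 1.17.1 and matplotlib 3.10.9 were used for tables and figures. Sequences came from the RefSeq tables of GRCr8, which is not the build of the deposited files. Printed coordinates belong to GRCr8.

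The 7 genes and all lists were chosen with earlier results of these data known. Genes named are the 7, members of the lists that passed the call, up to 4 further examples per list with the highest mean FPKM, and the 10 genes most like the mean of the 7. Cd3e, Cd3d and the nearest genes of single members were named after their values were seen. Some genes that the rule names are not reported here. Listed symbols without a row included Vpreb3, Fcmr, Derl3, Fdcsp, Clec4c, Trac, Trbc1 and Pecam1. Alternatives were RLE scaling, DESeq2 1.42.0, limma 3.58.1 on log2(FPKM + 1), no filter, a filter at a mean of 1 FPKM, only the groups compared, only libraries with taurocholate or only those without it, a replicate block, an unadjusted p, no minimum fold, other measures of likeness and each library left out in turn. A fit without Con-6h replicate 2 for comparisons not containing it was added after seeing the data.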

Additional observations from a re-analysis of the deposited data

Results flagged for a closer look

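Igj, the J chain gene, had opposite differences at 6 h and at 24 h in 2 contrasts, and in each the 3 rats of one group lay entirely above or below the 3 of the other at both times. In SAP against Sham, the log2 fold change was 0.89 at 6 h and -1.67 at 24 h, a change of -2.56 (edgeR's interaction term, adjusted p = 0.154, unadjusted p = 0.00098). In Emo against SAP, it was -1.20 at 6 h and 0.80 at 24 h, a change of 2.00 (adjusted p = 0.083, unadjusted p = 0.0071). Both contrasts share the SAP-6h libraries, at 129.15, 129.93 and 237.78 FPKM, and the SAP-24h libraries, at 51.69, 31.19 and 60.02 FPKM. The immunoglobulin genes summed to 1282 to 2091 FPKM in SAP-6h and 347 to 870 FPKM in SAP-24h, and their part in the result was not tested. Neither interaction passed the adjusted threshold with all libraries. That of Emo against SAP passed without replicate 2 of Emo-6h (edgeR adjusted p = 0.0499), and DESeq2 called Igj in both (adjusted p = 0.0224 for SAP against Sham and 0.0361 for Emo against SAP). The shares of all genes that DESeq2 called for these terms are not given.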

How the results depend on the processing

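The direction of every one of the 7 genes in the 6 comparisons with calls was kept under RLE scaling, DESeq2, limma, the filters and the reduced sets of libraries. Signs reversed only when 1 library was left out, for differences far from the threshold. In SAP-24h against Sham-24h, Ms4a1 ranged from -0.73 to 0.018, above 0 without replicate 1 of Sham-24h, and Pou2af1 from -0.33 to 0.053, above 0 without replicate 2 of SAP-24h (0.036) or replicate 1 of Sham-24h. In DEX-24h against SAP-24h, Mzb1 ranged from -0.46 to 0.49 and became -0.46 without replicate 1 of DEX-24h and -0.08 without replicate 2 of SAP-24h.

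The number of the 7 genes called was 1 for SAP-24h against Sham-24h (0 with only the groups compared, 0 to 1 with 1 library left out) and 1 for SAP-24h against SAP-6h (0 with only the groups compared, 0 to 1 with 1 left out). It was 2 for DEX-24h against SAP-24h (0 with limma, 1 with only the groups compared, 4 with an unadjusted p, 0 to 2 with 1 left out) and 3 for DEX-24h against Sham-24h (5 with DESeq2, 5 with an unadjusted p, 1 to 4 with 1 left out). For Emo-24h against DEX-24h it was 4 (6 with an unadjusted p, 6 with only the groups compared, 5 with DESeq2, 5 with only the libraries of taurocholate-treated rats, 3 with RLE scaling, 3 without a filter, 2 to 5 with 1 left out). For DEX-24h against DEX-6h it was 4 (6 with an unadjusted p, 6 with only the libraries of taurocholate-treated rats, 5 with DESeq2, 5 with only the groups compared, 3 with limma, 3 to 6 with 1 left out). Where no gene was called, an unadjusted p gave 2 genes for Sham-6h against Con-6h, 2 for Con-24h against Con-6h and 2 for the DEX effect at 24 h minus at 6 h, and 1 each for DEX-6h against SAP-6h, Emo-6h against SAP-6h, the SAP and the emodin effects at 24 h minus at 6 h, and DEX averaged over time. DESeq2 gave 1 for each of the last 3, and fitting only the libraries of taurocholate-treated rats gave 1 for DEX averaged over time. With 1 library left out, counts were 0 to 1 for SAP-24h against Con-24h, DEX averaged over time and the emodin effect at 24 h minus at 6 h, and 0 in all other comparisons without a call. By an unadjusted p and at least a 2-fold change, 7.27% of all genes tested passed for DEX-24h against SAP-24h. The share was 7.63% for DEX-24h against Sham-24h, 8.32% for Emo-24h against DEX-24h and 9.36% for DEX-24h against DEX-6h. It was 1.79% to 8.78% for the 8 comparisons where this rule gave genes and edgeR called none. Shares of all genes under the other settings are not given. Causes were not tested.

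Replicate numbers were shared across groups by different rats. With a replicate block, the pairing by number gave 3 genes called for Emo-24h against DEX-24h and 3 for DEX-24h against DEX-6h, where Igj (adjusted p = 0.0545) and Ms4a1 (0.0518) no longer passed, and the same numbers as without it elsewhere. Same-numbered libraries had correlations of deviations from -0.363 to 0.359 (median -0.01, 135 pairs), and 8 of 30 libraries correlated best with their own number. Of the 10 genes most like the 7, a pseudocount of 0.1 shared 10, Spearman's rho 7, deviations from group means 5, and the fit without Con-6h replicate 2 shared 9. Between replicate pairs, chi-square per degree of freedom over genes was 37.5 to 209, where counting error alone gives about 1. Of the 7 genes, Ms4a1 had the fewest reads, 28 in its lowest library.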

Other observations

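Replicate 2 of Con-6h was the highest library for the summed genes of B cell identity (293 FPKM), of B cell factors and lymphoid follicles (611 FPKM, 1.66 times the median of the other 29), of germinal centres (43.9 FPKM, 1.37 times) and of macrophages (407 FPKM, next highest 405). It was not the highest for receptor signalling (505 FPKM, above 23 of 29) or plasma cell genes (549 FPKM, above 27 of 29). Its neutrophil genes (3290 FPKM) and alveolar type 2 genes (29138 FPKM) were within the range of the others. Gcsam, a germinal centre B cell gene, was called lower in SAP-24h than in Sham-24h (0.583 and 2.06 FPKM, log2 fold change -1.68, edgeR adjusted p = 0.011) and higher in Emo-24h than in SAP-24h (1.56, adjusted p = 0.023). In each of these comparisons 1 of 6 germinal centre genes was called, where 3.01% of all genes tested were called lower and 1.93% higher, respectively. The heavy chain gene Igh-1a was called higher in Emo-24h than in Emo-6h (2.18, adjusted p = 0.045). It was the only 1 of 6 immunoglobulin genes called there, and 3 of 6 germinal centre genes were called higher. Of all genes tested, 6.33% were called higher in that comparison. Glycam1, a ligand of L-selectin made by venules of lymphoid tissue, was called lower from DEX-6h (mean 21.1 FPKM) to DEX-24h (0.213 FPKM), with a wide error (-6.59, SE 1.87, adjusted p = 0.013). Of the 13 tested genes of B cell factors and lymphoid follicles, 4 were called lower and 1 higher there. The shares of all genes tested were 3.91% and 3.23%.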
